A study of Homo sapiens with 16 samples.

Results

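Of 2213 genes with an Ago2 peak in the deposited table, 27 were histone genes, and these are described here. The rule that chose them reads gene names and no measured value. Names that begin with HIST gave 22 replication-dependent genes, and names that begin with H1F, H2AF or H3F gave 5 variant genes. Together they had 51 of the 4768 deposited peaks, or 50 peaks with distinct values, 35 of them in replication-dependent and 15 in variant genes. Argonaute 2 (Ago2) is loaded with microRNAs and guided by them to matching RNAs. In CLIP, Ago2 is crosslinked to the RNA it touches and precipitated, and that RNA is sequenced. Cultures of 293S, an established line from human embryonic kidney, had received 1 µM hippuristanol for 30 min or no treatment. Hippuristanol, a natural product, inhibits the RNA helicase eIF4A, which unwinds mRNA leaders when translation begins. The series' design text gives 2 biological replicates per treatment, each divided into 3 aliquots for CLIP with Ago2 antibodies of different makers and 1 for RNA-seq, which makes 12 CLIP and 4 RNA-seq libraries.

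The values are the authors' own and are pooled over libraries. For every peak the table holds a log average of both treatments and a log ratio, treated over untreated, so that a negative log ratio is a lower value in treated cells. Neither the logarithm's base nor the normalization is stated in the sources at hand, and values therefore stay in log units without folds. With 1 pooled value per peak there is no spread between replicates, no p-value, and no library depth to set a counting error. Throughout, a gene's value is the median of its peaks, and 0.17 is the median log ratio over all 2213 genes. None of 14 marker genes of other cell types had a peak, and of 6 genes looked for as markers of the line, only NEFL and VIM had one. Of all protein-coding genes 10.1% had a peak, so such short lists cannot tell cell types apart.

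Replication-dependent histone genes are transcribed in large amounts in S phase, when new DNA is packed into nucleosomes. Their mRNAs have no introns and usually end in a conserved stem-loop, bound by the stem-loop binding protein, where other mRNAs end in a poly(A) tail. They encode the core histones H2A, H2B, H3 and H4, which form the nucleosome, and the linker histone H1. Variant genes are mostly expressed through the cell cycle from polyadenylated mRNAs, although the H2AFX transcript also holds a stem-loop. Their products can replace the standard histones, such as H3.3 in transcribed chromatin.

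The stem-loops are shown for members with low log ratios or high log averages below and for the variant that has one, because this ending is what replication-dependent histone mRNAs are known for. They were read from GENCODE 29 transcripts matched by RefSeq identifier, 5′ to 3′, and capitals mark the stem-loop.
HIST1H2AC: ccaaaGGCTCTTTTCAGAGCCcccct
HIST1H2AG: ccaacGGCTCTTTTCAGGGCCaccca
HIST1H4E: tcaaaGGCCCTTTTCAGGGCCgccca
HIST1H3H: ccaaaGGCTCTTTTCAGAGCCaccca
HIST2H2BE: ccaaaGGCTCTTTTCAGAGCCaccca
HIST3H2A: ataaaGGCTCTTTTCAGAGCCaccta
H2AFX: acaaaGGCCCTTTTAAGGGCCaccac

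Of the 22 replication-dependent genes, 13 had an annotated 3′ untranslated region (3′ UTR) in these transcripts, and 11 of the 13 held the stem-loop motif on the sense strand. Over all 19164 protein-coding genes with an annotated 3′ UTR, 36 held it (0.188%). The reference transcripts of the other 9 replication-dependent genes held coding sequence only, so the motif could not be looked for there, and the count describes the 13 alone. The same 16-base stem-loop stood in 7 genes, namely HIST1H2AC, HIST1H2AE, HIST1H2AI, HIST1H2BG, HIST1H3H, HIST2H2BE and HIST3H2A. Among the 5 variant genes, only H2AFX held the motif, 1044 nt before its annotated end. The polyadenylation signals AATAAA or ATTAAA stood in the last 50 bases of all 5 variant transcripts and of 7 of the 13 replication-dependent ones. Both endings were therefore annotated for H2AFX and for some HIST genes, among them HIST1H2AC, HIST1H2AG and HIST2H2BE, and which ending the bound RNA had was not measured.

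GENCODE 29 names 71 protein-coding replication-dependent genes, of which 22 (31.0%) had a peak in the table used here, and 16 variant genes, of which 5 (31.3%) had one. Of all 19669 protein-coding genes, 1984 (10.1%) had a peak. By type, 7 of 17 H2A genes, 5 of 15 H4 genes, 2 of 6 H1 genes, 4 of 15 H3 genes and 4 of 18 H2B genes of the replication-dependent kind had one. A single peak was listed for 14 of the 22 replication-dependent genes, for 2 of the 5 variant genes and for 66.1% of all genes. The most peaks in a member were 6, in HIST1H1C and in H1F0.

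Replication-dependent histone genes mostly had log ratios below the median of all genes. The median over the 22 replication-dependent genes was −0.31, with values of −1.50 to 0.72, against 0.28 over the 5 variant genes, with values of −0.22 to 1.22. All genes had a median of 0.17 and quartiles of −0.28 and 0.58. Under their median stood 18 of the 22 replication-dependent genes and 2 of the 5 variant genes, where 50% of all genes stand by construction. Below 0 lay 14 of 22 and 2 of 5, against 39.5% of all genes. A gene log ratio below −1 was found in 3 of 22 replication-dependent genes and no variant gene, against 3.43% of all genes, and one above 1 in no replication-dependent gene and 1 of 5 variant genes, against 9.17%. The difference of medians, replication-dependent minus variant, was −0.59, and the ranges of both groups overlapped. Less histone mRNA per cell, fewer cells in S phase and less Ago2 per mRNA cannot be told apart in these values. The difference depends on the 5 variant genes counting once each. Over peaks it was −0.13, from medians of −0.27 over 35 replication-dependent peaks and −0.14 over 15 variant peaks. With gene values taken from 3′ UTR peaks only it was −0.27, over 14 replication-dependent and 4 variant genes. Over single 3′ UTR peaks both groups had a median of −0.14. Among peaks of all classes, 25 of 35 replication-dependent and 11 of 15 variant peaks stood under 0.17, against 50.9% of all peaks.

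**Figure D1:**
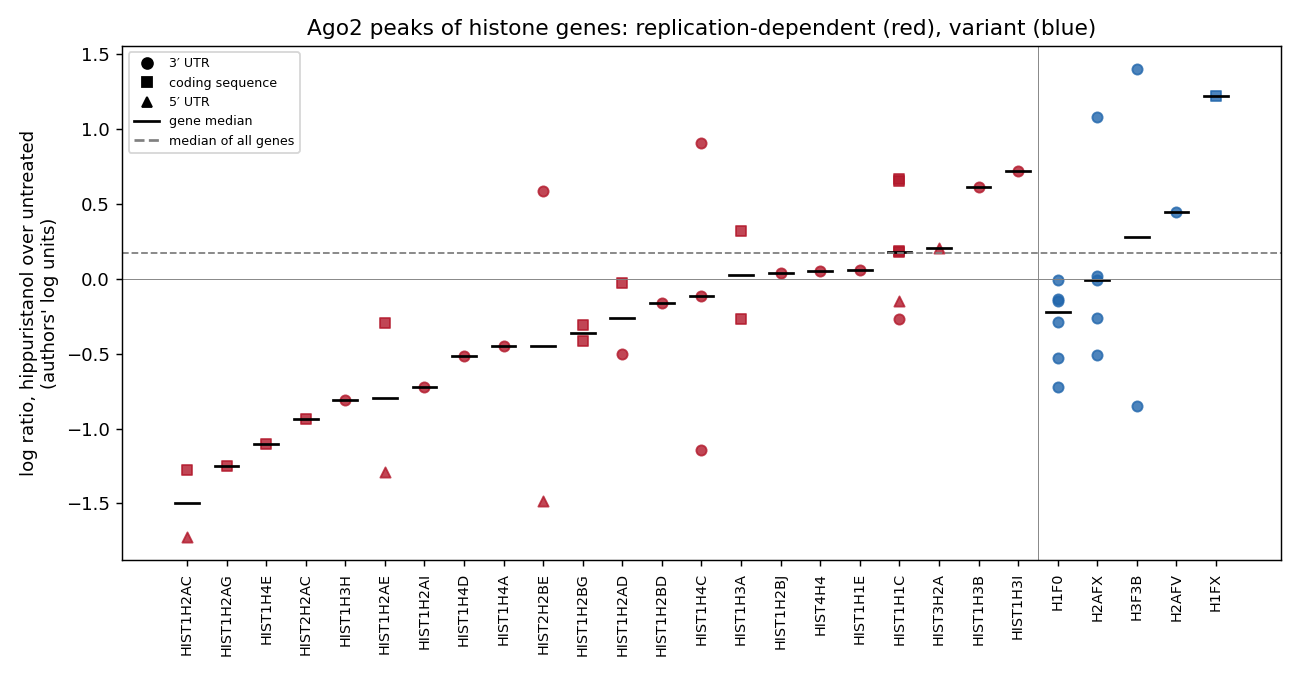
Each point is the log ratio of hippuristanol over untreated (authors' log units) of an Ago2 peak, shaped by its annotation class, for 22 replication-dependent genes on the left (red) and 5 variant genes on the right (blue). Short black lines are gene medians and the dashed line is the median of all genes, 0.17, above which 4 replication-dependent and 3 variant gene medians lie.

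Replication-dependent H2A genes had the lowest median of the 5 types. It was −0.79 over 7 genes, and 6 of the 7 lay below 0. HIST1H2AC, a canonical H2A gene, had the lowest value of all members, with peaks of −1.72 and −1.27 in the authors' deposited table. Both peaks overlap, the first in the 5′ UTR (chromosome 6, 26124438 to 26124473, plus strand, hg19) and the second in coding sequence (26124462 to 26124498). Only 0.497% of all genes had a lower log ratio than HIST1H2AC. HIST1H2AG had 1 coding peak at −1.25 in the authors' deposited table (chromosome 6, 27101168 to 27101225, plus strand). HIST2H2AC, from the histone cluster on chromosome 1, had −0.93 in a coding peak of the authors' deposited table (149858861 to 149858886, plus strand). For the 3′ UTR peak of HIST1H2AI the authors' deposited table listed −0.72. HIST1H2AE had −1.29 in a 5′ UTR peak (chromosome 6, 26217176 to 26217241, plus strand) and −0.30 in a coding peak (26217528 to 26217571) of the authors' deposited table. HIST1H2AD had −0.50 in a 3′ UTR peak (chromosome 6, 26199013 to 26199084, minus strand) and −0.030 in a coding peak (26199122 to 26199176). Log averages of these genes were −6.51 for HIST1H2AC, −5.52 for HIST1H2AG, −5.16 for HIST2H2AC, −7.98 for HIST1H2AE and −6.01 for HIST1H2AD. HIST3H2A, also on chromosome 1 but outside that cluster, was the exception, with 0.20 in a 5′ UTR peak of the authors' deposited table (228645488 to 228645547, minus strand). Its log average of −4.09 was the highest of the 7.

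All 5 H4 genes and all 4 H2B genes stood under the median of all genes, with medians of −0.45 for H4 and −0.26 for H2B. HIST1H4E had 1 coding peak at −1.10 in the authors' deposited table (chromosome 6, 26205114 to 26205154, plus strand), and HIST1H4D and HIST1H4A had 3′ UTR peaks at −0.51 and −0.45. HIST4H4, the single H4 gene on chromosome 12, stood at 0.053 in the authors' deposited table. HIST1H4C had 3 consecutive 3′ UTR peaks that overlap their neighbours, and in 5′ to 3′ order they had log ratios of −1.14, −0.11 and 0.91 in the authors' deposited table (chromosome 6, 26104442 to 26104563, plus strand). Its median of −0.11 therefore stands for none of the outer peaks. Among H2B genes, HIST2H2BE had 2 peaks on opposite sides of 0, −1.48 in the 5′ UTR and 0.59 in the 3′ UTR of the authors' deposited table (chromosome 1, 149858158 to 149858224 and 149857746 to 149857826, minus strand). HIST1H2BG had coding peaks at −0.41 and −0.31 (chromosome 6, 26216556 to 26216616 and 26216725 to 26216756, minus strand). In the same authors' deposited table HIST1H2BD had a 3′ UTR peak at −0.16 and HIST1H2BJ one at 0.039. Log averages were −7.13 for HIST1H4E, −6.69 for HIST1H4C, −4.73 for HIST2H2BE and −7.28 for HIST1H2BG.

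Replication-dependent H3 and H1 genes stood on both sides of the median of all genes. The H3 median was 0.32 over 4 genes, and the H1 median 0.12 over 2 genes. HIST1H3I and HIST1H3B, which encode canonical H3, had the highest values among replication-dependent genes, 0.72 and 0.61, from 3′ UTR peaks of the authors' deposited table (chromosome 6, 27839635 to 27839666 and 26031825 to 26031912, minus strand). HIST1H3A had coding peaks at −0.27 and 0.32 in the authors' deposited table (chromosome 6, 26020813 to 26020898 and 26020917 to 26020953, plus strand). HIST1H3H stood apart from them at −0.81 in a 3′ UTR peak (chromosome 6, 27778270 to 27778303, plus strand), and its log average of −2.53 in the authors' deposited table was the highest of all 27 members and above that of 96.6% of all genes. The other high log averages were those of HIST1H3B at −3.83, HIST1H3A at −3.99 and HIST3H2A. The linker histone gene HIST1H1E stood at 0.057 with a 3′ UTR peak. HIST1H1C had 6 peaks and a median of 0.18, with 4 coding peaks between 0.18 and 0.67, a 5′ UTR peak at −0.15 and a 3′ UTR peak at −0.27 in the authors' deposited table (chromosome 6, 26055993 to 26056666, minus strand). Its coding peak next to the 3′ UTR peak had a log average of −4.34, against −7.69 to −6.66 in the other 5 peaks and −7.15 for the gene. HIST1H3I had a log average of −4.43.

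**Figure D2:**
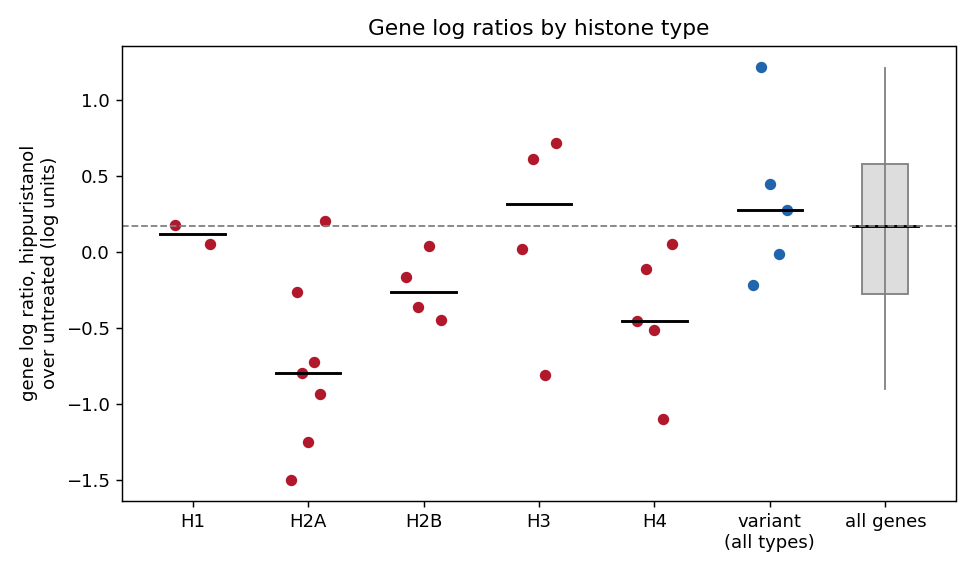
Points are gene log ratios of hippuristanol over untreated (log units) for replication-dependent genes by histone type and for variant genes of all types, with black lines at medians. The box for all 2213 genes runs from the 25 to the 75 percentile and its line from the 5 to the 95 percentile. The H2A median of −0.79 is the lowest and the H3 median of 0.32 the highest.

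The 5 variant genes ranged from below to well above the median of all genes. H1FX, a linker histone variant, had the highest value of all members, 1.22 in a coding peak of the authors' deposited table (chromosome 3, 129034474 to 129034498, minus strand), and it was the only variant gene with a peak outside the 3′ UTR. H2AFV, which encodes an H2A.Z protein, had 0.45 in a 3′ UTR peak of the authors' deposited table (chromosome 7, 44866629 to 44866653, minus strand). H3F3B, 1 of the genes of H3.3, had 2 peaks only 51 nt apart with opposite values, −0.85 upstream and 1.40 downstream in the authors' deposited table (chromosome 17, 73774450 to 73774531 and 73774344 to 73774399, minus strand). H2AFX, which encodes H2A.X, had 5 3′ UTR peaks from −0.51 to 1.08 in the authors' deposited table, with a median of −0.010 and a log average of −6.33 (chromosome 11, 118964649 to 118965423, minus strand). H1F0, the linker histone H1.0 of cells that divide little, had 6 3′ UTR peaks, all below 0, from −0.72 to −0.010 in the authors' deposited table, with a median of −0.22 (chromosome 22, 38202185 to 38203401, plus strand). Log averages were −4.16 for H1FX, −7.21 for H2AFV, −7.13 for H3F3B and −6.26 for H1F0. H1FX and H1F0, both linker variants, thus lay at opposite ends of the variant group.

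Replication-dependent genes had peaks in all 3 classes of mRNA sequence, and variant genes nearly all in 3′ UTRs. Of 35 replication-dependent peaks, 16 (45.7%, exact Clopper-Pearson 95% interval 28.8% to 63.4%) were in 3′ UTRs, 14 (40.0%, 23.9% to 57.9%) in coding sequence and 5 (14.3%, 4.81% to 30.3%) in 5′ UTRs. Of 15 variant peaks, 14 (93.3%, 68.1% to 99.8%) were in 3′ UTRs and 1 (6.67%, 0.169% to 31.9%) in coding sequence. Over all 4028 peaks outside non-coding exons, the shares were 71.8%, 23.6% and 4.59% for 3′ UTR, coding and 5′ UTR. Intervals cover counting of peaks only, and peaks of 1 gene are not independent of each other. H1F0 and H2AFX gave 11 of the 14 variant 3′ UTR peaks.

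Low log ratios of replication-dependent genes were found in all 3 classes, with the lowest in 5′ UTRs. In 3′ UTRs the median was −0.14 over 16 replication-dependent peaks and −0.14 over 14 variant peaks, against 0.15 over all 2894 3′ UTR peaks. Counted by peaks, and not by genes, both kinds of histone gene thus had the same median to 2 decimals in that class. In coding sequence it was −0.28 over 14 replication-dependent peaks, against 1.22 for the single variant peak and 0.20 over all 949 coding peaks. In 5′ UTRs it was −1.29 over 5 replication-dependent peaks and 0.25 over all 185 such peaks, and no variant gene had a 5′ UTR peak. Log ratios below −1 were listed for 7 of 35 replication-dependent peaks and 0 of 15 variant peaks, against 4.22% of all peaks, and log ratios above 1 for 0 of 35 and 3 of 15, against 11.3%. By class, the replication-dependent peaks below −1 were 3 of 5 in 5′ UTRs (4.86% of all 5′ UTR peaks), 3 of 14 in coding sequence (4.74% of all coding peaks) and 1 of 16 in 3′ UTRs (4.42% of all 3′ UTR peaks). The 3 in 5′ UTRs were those of HIST1H2AC, HIST2H2BE and HIST1H2AE, which had the lowest, the third lowest and the fourth lowest log ratio of all 185 5′ UTR peaks. The classes are the authors'. In GENCODE 29 the 5′ UTR of HIST2H2BE is 12 nt long and its peak 66 nt, and that of HIST3H2A is 56 nt and its peak 59 nt. No 5′ UTR is annotated there for HIST1H2AE and HIST1H1C. By that annotation the 5′ UTR peaks of these genes reach outside 5′ UTRs, and only that of HIST1H2AC is short enough to fit. The other 5′ UTR peaks, of HIST1H1C and HIST3H2A, stood at −0.15 and 0.20 in the authors' deposited table.

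Within genes, 5′ UTR peaks of core histone genes lay below the gene's other peaks. The log ratio of the 5′ UTR peak minus that of the coding peak was −0.45 in HIST1H2AC and −0.99 in HIST1H2AE, and 5′ UTR minus 3′ UTR was −2.07 in HIST2H2BE. In the linker gene HIST1H1C, 5′ UTR minus the median of the coding peaks was −0.57 and 5′ UTR minus 3′ UTR was 0.12. Over all 36 genes with both classes, the median of 5′ UTR minus coding was 0.075, with 17 genes below 0, and over 50 genes the median of 5′ UTR minus 3′ UTR was 0.12, with 23 below 0. HIST1H1C and HIST1H2AD had coding and 3′ UTR peaks, and in both the 3′ UTR value was the lower one, with differences of −0.69 and −0.47. In 234 genes of the table with both, the median of 3′ UTR minus coding was −0.053, with 123 genes below 0.

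**Figure D3:**
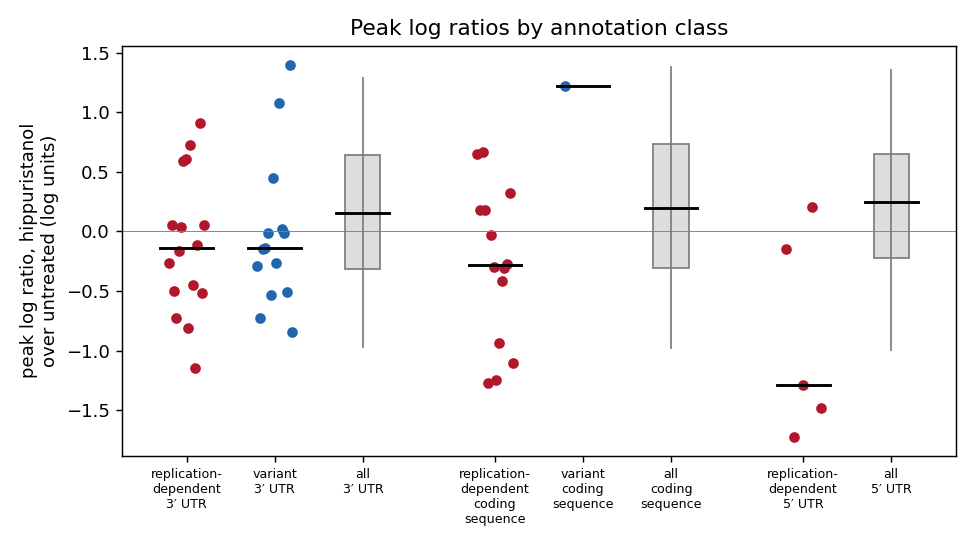
Points are log ratios of hippuristanol over untreated (log units) of single histone peaks in 3′ UTRs, coding sequence and 5′ UTRs, for replication-dependent (red) and variant (blue) genes, with black lines at medians. Grey boxes show all peaks of the class from the 25 to the 75 percentile, with lines from the 5 to the 95 percentile. In 5′ UTRs, 3 of the 5 histone peaks lie below −1.

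Peaks of the same gene often differed, in histone genes as over all genes. Between neighbouring peaks of the same histone gene, the log ratio differed by a median of 0.51 over 16 pairs without overlap and 0.45 over 7 overlapping pairs. Over all genes these medians were 0.60 over 1997 pairs and 0.35 over 508 pairs. The largest gaps were 2.25 in H3F3B and 2.07 in HIST2H2BE.

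Genes that lie side by side in the histone clusters did not share 1 value. HIST1H2AE and HIST1H2BG, on opposite strands of chromosome 6 with their nearest peaks 420 nt apart, stood at −0.79 and −0.36. HIST2H2AC and HIST2H2BE on chromosome 1, a pair of the same arrangement with nearest peaks 637 nt apart, stood at −0.93 and −0.45. HIST1H2AG and HIST1H2BJ, with nearest peaks 1017 nt apart, stood at −1.25 and 0.039. The H2A gene was the lower in each of these 3 pairs. On the same strand, HIST1H2AI and HIST1H3H stood at −0.72 and −0.81, HIST1H3A and HIST1H4A at 0.023 and −0.45, and HIST1H1E and HIST1H2BD at 0.057 and −0.16. The 13 genes between 26020813 and 26217571 on chromosome 6 had a median of −0.26, the 5 genes between 27100107 and 27839666 a median of −0.72, and the 4 genes outside chromosome 6 a median of −0.20.

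Log averages of replication-dependent genes had a higher median than those of variant genes and of all genes. Their median was −5.44, against −6.33 for variant genes and −6.30 for all genes, a difference of 0.89 from variant genes that turned to −2.46 with coding peaks only, where H1FX was the single variant gene. The spread was wide, from −8.23 in HIST1H2BD to −2.53 in HIST1H3H. By type the medians were −3.91 for H3, −5.52 for H2A, −5.98 for H1, −6.37 for H2B and −6.56 for H4. These levels are not per length and may not be on the same scale in all genes, for the following reason. Adding or subtracting 0.5 of the log ratio from the log average gives a level for treated and for untreated cells, if the log average is the mean of both logs. Among these levels, 39 values in treated cells and 53 in untreated cells were equal to 9 decimals in several peaks of a gene, and none was shared between genes, while no log average or log ratio was equal to 9 decimals in distinct peaks. A term in the values that is common to a gene's peaks was not tested, and RNA-seq levels of the members are not analysed here.

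Levels computed this way set single peaks side by side. Both peaks of HIST1H2AC had the same level in treated cells, −7.26, against −5.53 for the 5′ UTR peak and −5.98 for the coding peak in untreated cells. The 5′ UTR peak of HIST2H2BE had −5.29 in treated and −3.81 in untreated cells, and its 3′ UTR peak −4.62 in treated and −5.20 in untreated cells, so the order of both peaks was turned round. HIST1H3H had −2.93 in treated and −2.12 in untreated cells, the highest histone level in each. The 2 overlapping H2AFX peaks that start at 118965304 and 118965334 shared an untreated level of −6.32, and 2 overlapping H1F0 peaks shared a level of −6.59 in treated cells. In H3F3B the downstream peak had −6.42 in treated and −7.81 in untreated cells, and the upstream peak −7.57 in treated and −6.72 in untreated cells.

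**Figure D4:**
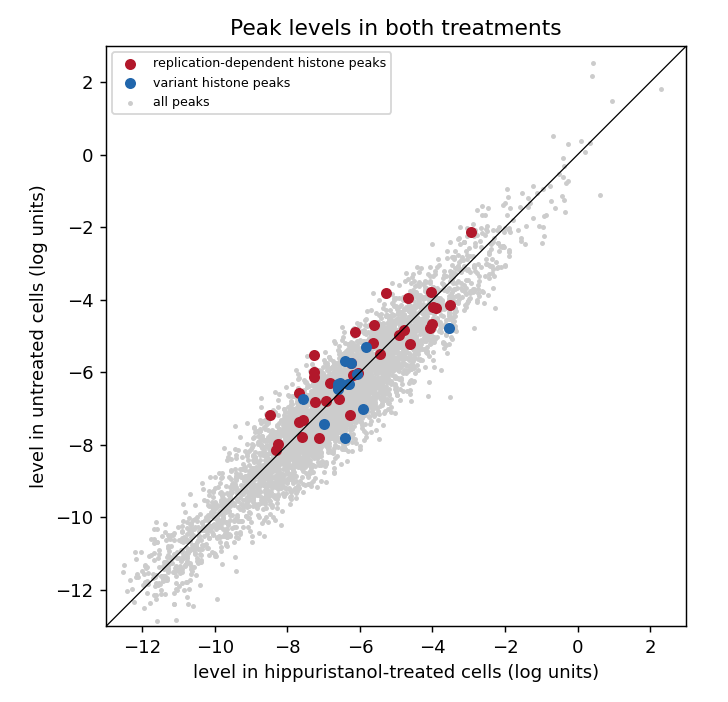
Levels of peaks in hippuristanol-treated cells (horizontal axis) and in untreated cells (vertical axis), in the authors' log units, computed as log average plus or minus 0.5 of the log ratio. Grey points are all 4718 peaks, and red and blue points those of replication-dependent and variant histone genes. Points above the diagonal are lower in treated cells. This holds for 22 of 35 replication-dependent and 10 of 15 variant peaks, against 40.9% of all peaks.

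Near-identical copies limit what single histone genes show. For each member, the share of 25-base windows that also occur in a transcript of another gene was counted. In coding sequence the median was 12.6% over 22 replication-dependent genes, from 2.43% in HIST1H4C to 99.2% in HIST1H2AD, and 22.5% over 5 variant genes, with 53.0% in H2AFV and 50.6% in H3F3B. In 3′ UTRs it was 0.675% over the 13 replication-dependent genes with one and 0% over variant genes, at most 12% and 8.98%. Of the genes with the lowest log ratios, 17.9% of coding windows were shared in HIST1H2AC, 32.2% in HIST1H2AG and 8.33% in HIST1H4E. Among replication-dependent genes, over 50% were shared in HIST1H2AD, HIST1H2AI, HIST2H2AC and HIST2H2BE. Without these 4 genes, 14 of 18 replication-dependent genes stood under the median of all genes, and the difference from all 5 variant genes was −0.41. The shares are over whole coding sequences, while the peaks of HIST1H2AI and HIST2H2BE were classed in untranslated regions. How much sequence under single peaks is shared was not determined. H2AFV and H3F3B, also over 50%, were kept on the variant side. They stood at 0.45 and 0.28, both above the median of all genes, and the difference without them was not computed. The −0.41 therefore does not show whether the difference holds without shared copies in both groups. How reads that match several copies were placed is not stated in the labels or the table.

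Annotated 3′ UTRs were searched for seed matches to let-7, miR-17, miR-16, miR-19 and miR-92, which were picked after the values had been seen. The mature sequences are from RefSeq (GRCh38.p14), with the seed, bases 2 to 8, in capitals, because its reverse complement was searched.
let-7a-5p: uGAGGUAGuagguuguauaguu
miR-17-5p: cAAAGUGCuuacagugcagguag
miR-16-5p: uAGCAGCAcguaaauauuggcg
miR-19b-3p: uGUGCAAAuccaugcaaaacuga
miR-92a-3p: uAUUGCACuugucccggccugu

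All 4 variant genes with 3′ UTR peaks had an annotated 3′ UTR, and 1 of them, H2AFV with a let-7 match, held any of the sites. The 13 3′ UTR peaks of H1F0, H2AFX and H3F3B lay in 3′ UTRs with no match to these 5 seeds. Over all 1467 genes with a 3′ UTR peak and an annotated 3′ UTR, 1030 (70.2%) held a match, in 3′ UTRs with a median length of 1642 nt. For replication-dependent genes the count is void, since 7 of 14 had an annotated 3′ UTR, and among these HIST2H2BE held a match, to miR-16. A match is of letters only, and whether it lies under a peak was not determined, because the table uses hg19 and the transcripts GRCh38.

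Some genes that process histone mRNA or handle histone proteins had peaks of their own. The share of all protein-coding genes with a peak was 10.1%. Of 23 gene symbols listed for histone mRNA metabolism, 4 had peaks, with a median of −0.30, and 3 of the 4 stood under the median of all genes. The symbols PAPD1 and MTPAP name the same gene, as do ARS2 and SRRT, so the list holds fewer genes than symbols. SLBP, which encodes the stem-loop binding protein, had a median of −0.53 over 2 coding peaks, and CSTF2 and SYMPK, of the 3′ end cleavage machinery, had −0.68 and −0.069. ERI1, an exonuclease that trims histone mRNA ends, had 0.93. Of 26 chaperone and assembly genes, 12 had peaks, with a median of 0.25 and 5 under the median of all genes. HAT1, which acetylates new H4, and UBN1, of the H3.3 chaperone complex HIRA, were the lowest at −1.10 and −0.66, and SET and SRCAP the highest at 0.64 and 0.62. Of 32 DNA replication genes, 10 had peaks, with a median of 0.12 and 5 under the median of all genes. MCM6 of the replicative helicase and RRM1 of ribonucleotide reductase were lowest at −0.56 and −0.30, and PCNA, the sliding clamp, and RPA2 were highest at 1.24 and 0.89. All values of these 3 lists are gene log ratios from 1 to 5 peaks in the authors' deposited table.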

How the data were processed

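A single deposited table places each Ago2 CLIP peak in hg19 and names its gene and class. Both of its value columns hold scores, deposited by the authors as normalized logs per the file headers: the average of both treatments, and the ratio of treated to untreated cells. The submitters' processing notes name Bowtie 0.12.8, TopHat, DESeq and the build hg19. What each tool did, how peaks were called and how libraries were pooled is not stated there. Coordinates are printed as the table gives them, and whether starts count from 0 or 1 is not stated.

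Peaks of a gene with identical values were counted once (50 pairs in the table, 1 in HIST1H3I), and the rest were summarised by gene medians with pandas 2.3.3 and scipy 1.17.1. Stem-loops, untranslated regions and shared 25-base windows came from GENCODE 29 transcripts, to which all 27 members were matched. Values had been seen when the microRNA families were picked. The code of the summaries was run on simulated peaks with independent noise and a known shift, which checks the code and not the values reported here. The name rule for members uses no value, but histone genes and the gene lists were picked as a subject with earlier results of these data known. Every member is named, with fuller values for all variant genes, genes with several peaks, and the highest and lowest values. Alternatives changed the gene value, peak class, filter, centring and treatment of copies. No test was run, since the table has no values per library.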

Additional observations from a re-analysis of the deposited data

How the results depend on the processing

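The median log ratio over histone genes, −0.16, lay between −0.41 and −0.010 under 10 alternatives and was 0.054 when each replication-dependent type counted as 1 value. The difference of median log ratios, replication-dependent minus variant, was −0.59, lay between −0.88 and −0.27 under 9 alternatives, and was −0.13 over peaks and −1.58 with coding peaks only, where 1 variant gene remained. Among the 9, centring takes the same value from both groups and could not move this difference. Keeping identical peaks repeats a value of HIST1H3I, its only one, and could not move any member's median. The difference of median log averages, 0.89, lay between 0.34 and 1.54 under 9 alternatives and was −2.46 with coding peaks only. The number of replication-dependent genes under the median of all genes, 18 of 22, was 11 of 14 with 3′ UTR peaks, 8 of 9 with coding peaks and 4 of 5 types, because fewer items were counted, and 14 against the deposited 0. For variant genes, 2 of 5, it was 11 of 15 over peaks and 0 of 1 with coding peaks. Over peaks the shares were close, with 25 of 35 replication-dependent peaks (71.4%) and 11 of 15 variant peaks (73.3%). Merging overlapping peaks and leaving out the 4 replication-dependent genes with shared coding sequence were added after the data were seen. Variant genes with shared coding sequence were not left out. No paired analysis was possible because the columns carry no replicate, and for the same reason no replicate could be left out. Values over 5 variant genes rest on few items, and library depth is not given.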
